A study of Caenorhabditis elegans with 30 samples.

Results

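Transcript levels of nematodes kept without any addition were compared between 72h and 24h after the larval L4 stage, so that the comparison follows the first days of adulthood. The members are the 6 libraries labelled Unexposed, 3 at 24h and 3 at 72h, of 30 libraries in the series, and every gene with enough counts was described. *Caenorhabditis elegans* larvae synchronised at L1 were grown to L4 on NGM plates with OP50 bacteria and moved to plates for 24h or 72h, in biological triplicates. The unexposed plates held no drug and no DMSO. The other libraries came from nematodes on 0.033% DMSO, the solvent control, or on 100μM of the thymidine analogues AZT, d4T or FLT, at the same 2 times. Before freezing, bacteria and laid eggs were removed over a mesh, and for the 72h cultures this was repeated daily with a transfer to new plates. Age and this daily handling therefore cannot be told apart. The 2 unexposed groups were sequenced in 1 lane. The wild type of the study was N2 Bristol, which its methods do not tie by name to the sequenced cultures, and a library is a pool of whole animals.

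An L4 larva moults once more and becomes a self-fertile hermaphrodite, which first uses up the sperm it made as a larva on its oocytes. The intestine of the adult makes yolk proteins, the vitellogenins, for the oocytes, and is also the main organ of digestion, fat storage and detoxification. The epidermis secretes the collagens of the cuticle. A pellet of whole adults mixes the RNA of the intestine, the epidermis, muscle, neurons, the germline and embryos still in the uterus.

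Gene counts were 23.3 to 25.6M per library at 24h and 25.9 to 30.6M at 72h, and rRNA genes held 0.388 to 0.533% and 0.749 to 0.881% of them. All 30 libraries were fitted together in edgeR, which left 16048 genes to be tested, and a call means that the quasi-likelihood test of edgeR gave a p below 0.01 after Benjamini-Hochberg adjustment. Levels are CPM, the count of a gene as a rate of all gene counts after TMM scaling between libraries, so that a level is relative to the other RNA in the library. Fold changes are on the log2 scale, where 1 is a 2-fold change, and SE is their standard error. Marker genes of oocytes, muscle, neurons and the intestine were counted in all 6 libraries, with a lowest count of 141. Those of sperm (*spe-9*, *gsp-3*, *fer-1*) had 0 to 53 counts, and those of male neurons (*pkd-2*, *lov-1*, *cwp-1*) 0 to 9. Over the series the mean profile at 24h was most like that of AZT at 24h (Pearson r across genes 0.990) and the profile at 72h most like that of d4T at 72h (r = 0.990), beside r = 0.967 between the 2 unexposed groups.

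The first component of the 6 unexposed libraries, with 61.9% of their variance, separated the times, and the correlation of log2 levels was 0.979 to 0.991 within a time and 0.954 to 0.962 between times. Of the 16048 genes, 1405 were higher at 72h (8.75%) and 1435 were lower (8.94%). The list counts given below stand beside these shares. The libraries of the 2 times did not overlap for 2831 of these 2840 genes, which calls made on the same values largely imply. Among all genes tested 27.4% were apart upwards and 27.1% downwards. Rises were larger than falls. 229 of the rises and 52 of the falls were at least 8-fold, while 491 and 630 were under 2-fold. Of the called genes 1290 and 1418 reached a mean of 1 CPM in their higher group, and 35 of the rises had no count in any 24h library. Scaling by library totals moved the median gene upwards by 0.21 on the log2 scale and gave 2186 rises and 894 falls, so that 70.97% of the calls were rises, against 49.5% with TMM. Without the d4T 24h replicate 2 library, whose spread entered the common fit, 2248 genes were higher and 1981 lower.

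**Figure D1:**
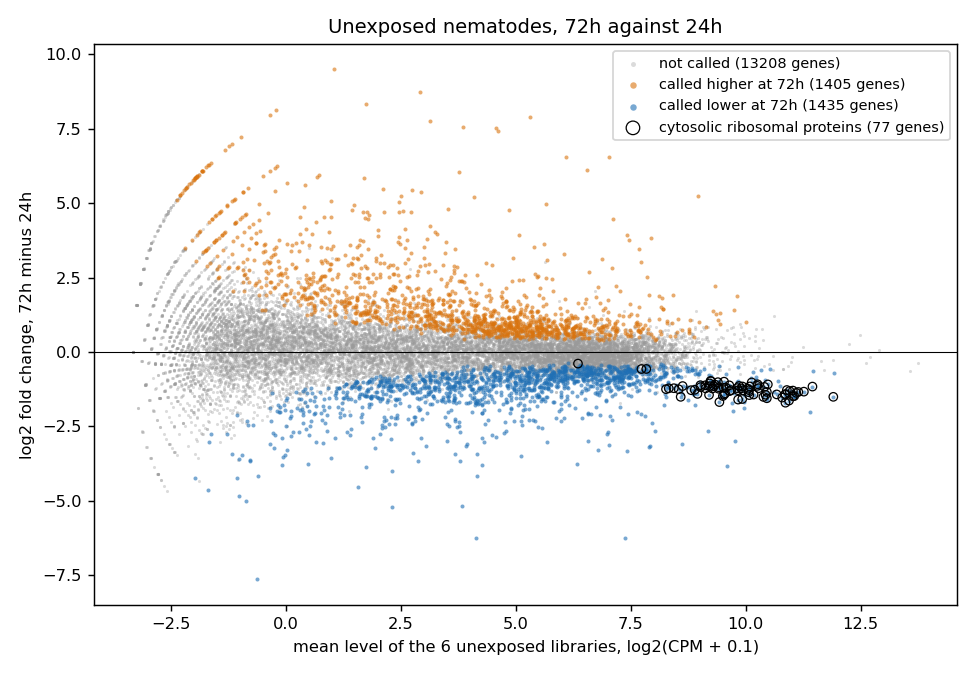
Each point is a gene, with its mean level over the 6 unexposed libraries on the horizontal axis and its log2 fold change from 24h to 72h on the vertical axis. Orange points are the 1405 genes called higher and blue points the 1435 called lower, and the circles of the 77 cytosolic ribosomal proteins lie below 0 among the most abundant genes.

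The most uniform change was in the protein synthesis machinery. Ribosomal proteins build the large and small subunits of the ribosome and are among the most abundant transcripts of the nematode. Of 77 tested cytosolic ribosomal protein genes 75 fell and 0 rose, with a median log2 fold change of -1.25 beside 0.042 over all genes tested. Their summed level was 108500, 128210 and 117390 CPM in the 24h libraries and 44918, 50789 and 46435 CPM in those of 72h. Every 72h library lay far below every 24h library, and all 77 members had libraries that did not overlap, beside 27.1% of all genes. As a share of all gene counts these genes took 10.24 to 11.58% at 24h and 4.83 to 5.32% at 72h. In whole animals fewer cells of a type and less RNA per cell cannot be told apart.

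The fall was alike in both subunits. All 31 tested genes of the small subunit were lower, as were 41 of 43 *rpl* genes of the large subunit and the 3 *rla* genes of its stalk, and the called genes ranged from -1.70 to -0.57. *rps-19* (WBGene00004488, chromosome I of WBcel235, 9625049 to 9625796), a small subunit protein, was at 988, 1160 and 1094 CPM at 24h and at 382, 443 and 384 CPM at 72h. The 3 libraries of 72h lay close together and far below those of 24h. The log2 change was -1.42 (SE 0.14, adjusted p = 3.4e-08). *rps-6* was similar, with 1166 ± 108 CPM (SD, n = 3) at 24h and 480 ± 54.3 CPM (SD, n = 3) at 72h. The 2 members that were not called were *rpl-11.2* (log2 fold change -0.57, adjusted p = 0.16) and *rpl-25.1* (-0.39, adjusted p = 0.40), which are paralogues of other *rpl* genes and were singled out after their values were seen. With scaling by library totals 74 genes still fell.

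Factors that make ribosomes, and the ribosomes of mitochondria, fell as well. Of 68 mitochondrial ribosomal protein genes 43 were lower (63.2%) and 0 higher, with a median of -0.82. Leaving out 1 library gave 25 at the lowest, without the 72h replicate 1, and 28 without the 24h replicate 2. *mrpl-41*, a protein of the large mitochondrial subunit, stood at 58.3, 58.6 and 56.7 CPM at 24h and at 27.2, 27.8 and 27.4 CPM at 72h. The replicates of each time hardly differed and the times were far apart. The log2 change was -1.07 (SE 0.12, adjusted p = 3.2e-07), and *mrpl-30* followed with -1.18. Of 23 genes of ribosome biogenesis 12 fell (52.2%, or 7 genes without the 72h replicate 1) and 0 rose, with a median of -0.60. Among them were *nol-56*, a nucleolar protein that guides rRNA methylation, with 396 ± 18.6 and 185 ± 18.7 CPM (SD, n = 3), and *rpoa-2*, a subunit of RNA polymerase I, with 140 ± 4.97 and 74.4 ± 7.495 CPM (SD, n = 3). The gene of fibrillarin, *fib-1*, changed by -0.65 (adjusted p = 0.0010), a call lost without the 24h replicate 3, the 72h replicate 1 or the 72h replicate 3.

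**Figure D2:**
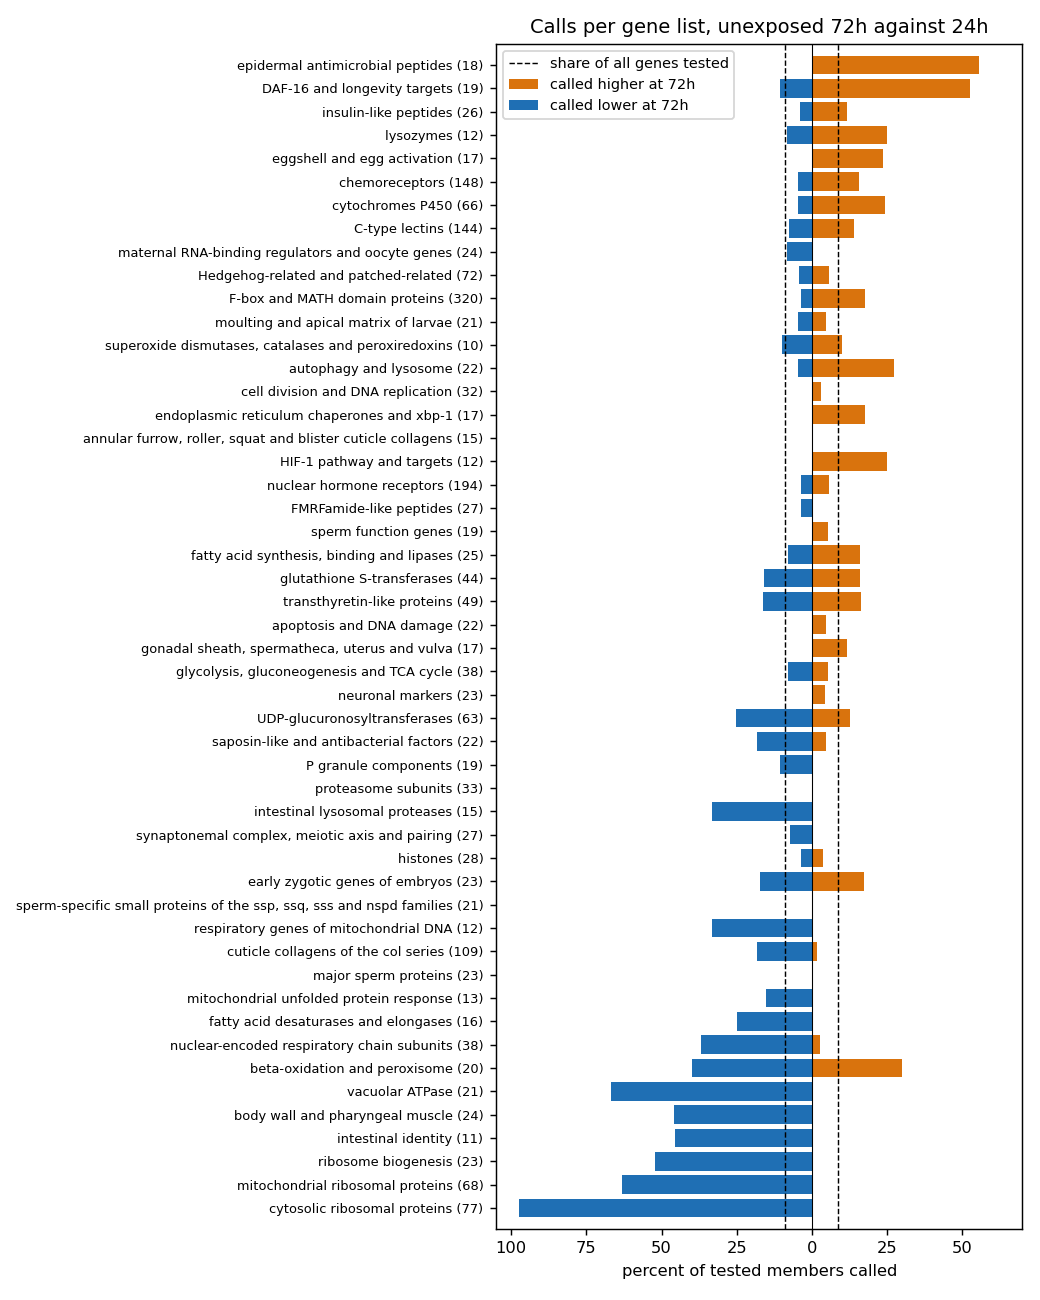
Bars give the percent of tested members called lower (left, blue) and higher (right, orange) at 72h in the 50 gene lists with at least 10 tested members, ordered by their median log2 fold change, with the number tested in brackets. The dashed lines mark the shares of all genes tested, 8.94% lower and 8.75% higher, and the bar of the cytosolic ribosomal proteins reaches furthest, 97.4% lower.

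Respiratory chain genes moved less. The chain passes electrons to oxygen in mitochondria, and most of its subunits are encoded in the nucleus and 12 in mtDNA. Of 38 nuclear subunits 14 were lower (36.8%) and 1, *sdha-1*, was higher (2.63%), with a median of -0.44. The *sdha-1* change was 0.46, a call lost without the filter and without each of the 6 libraries in turn. The count of lower genes was 6 with library totals. It was 2, 6 and 9 without the 72h replicates 1, 2 and 3, each in turn. It was 4 without the 24h replicate 2 and 8 without the 24h replicate 3. Without the 24h replicate 1 it stayed within 1.5 times of 14. *ucr-11*, a complex III subunit, fell from 359 ± 8.56 to 189 ± 17.9 CPM (SD, n = 3), and *nuo-2*, of complex I, from 201 ± 3.00 to 131 ± 6.02 CPM (SD, n = 3), a call lost without the 72h replicate 1. Of the 12 mtDNA genes 4 fell (33.3%, or 2 genes with library totals) and 0 rose. The log2 fold changes of the 4 were -1.19 for *ND6*, -0.97 for *ND5*, -0.85 for *ND4* and -0.72 for *CYTB*. *ND5* was at 1256, 1176 and 1173 CPM at 24h and at 673, 577 and 585 CPM at 72h, with no overlap. *COX3* was at 4437 ± 332 and 5347 ± 77.6 CPM (SD, n = 3) and was not called (adjusted p = 0.27). Mitochondrial transcripts are cut from common precursors, and *ND6* and *ND5* touch neighbouring genes. Reads that could not be assigned to 1 gene, 2.23 to 2.64% of unexposed reads, were counted for none, so that these levels may be too low. Of 13 genes of the mitochondrial unfolded protein response, 2 fell (15.4%) and 0 rose. The 2 were the chaperone *hsp-60* (-1.07, lost without the 72h replicate 3) and the import component *timm-23* (-0.93).

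Lists of intestinal genes held falls and no called rise, although some members were at a higher level at 72h. *pept-1* (WBGene00003877, chromosome X, 6456872 to 6461767), the transporter that takes up peptides from the gut lumen, was at 179, 220 and 200 CPM at 24h and at 23.5, 16.9 and 20.6 CPM at 72h. The 2 groups were far apart, and the log2 change was -3.30 (SE 0.25, adjusted p = 4.1e-10). *pho-1*, an intestinal acid phosphatase, fell from 91.2 ± 8.71 to 11.3 ± 0.983 CPM (SD, n = 3), and *ifb-2*, an intermediate filament of the gut, from 66.3 ± 4.48 to 23.9 ± 1.59 CPM (SD, n = 3). Of 11 genes of intestinal identity 5 fell (45.5%, beside 8.94% of all genes) and 0 rose, the others being *act-5* and *erm-1*. The gut esterase gene *ges-1* was at 26.8, 28.6 and 25.7 CPM at 24h and at 41.03, 48.5 and 41.5 CPM at 72h, apart upwards but not called (0.69, adjusted p = 0.085), and was named after its values were seen. Members given without a value complete a count and were named after their values were seen. Of 15 lysosomal proteases of the intestine 5 fell (33.3%) and 0 rose (4 and 1 with library totals), while the libraries were apart downwards for 7 and upwards for 6. The cathepsin B-like gene *cpr-1* was at 419, 298 and 311 CPM at 24h and at 656, 591 and 591 CPM at 72h and was not called (0.84, adjusted p = 0.27). Those that fell included the cathepsin L gene *cpl-1* at 1243 ± 83.3 and 476 ± 14.7 CPM (SD, n = 3) and *cpr-8* at 18.4 ± 4.71 and 4.52 ± 1.05 CPM (SD, n = 3). *asp-2*, *cpr-5* and *cpr-6* were the others.

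The vacuolar ATPase pumps protons into lysosomes and, with *vha-6*, into the gut lumen. Of its 21 genes 14 fell and 0 rose, with a median of -0.52, beside 8.94% of all genes. That count was 5 with library totals and 6 without any one of the 24h replicate 2, the 24h replicate 3 or the 3 libraries of 72h. *vha-6* was at 284, 297 and 263 CPM at 24h and at 116.4, 108.7 and 118.1 CPM at 72h. *vha-3* fell by a like amount, from 124 ± 13.2 to 48.0 ± 6.58 CPM (SD, n = 3), and for both genes the libraries of the times stood apart.

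The 6 vitellogenins code for the yolk proteins, and they did not move together. *vit-1* (WBGene00006925, chromosome X, 7727889 to 7733168) was at 4403, 4821 and 3757 CPM at 24h and at 1202, 1105 and 874 CPM at 72h. It had the clearest fall of the family, with a log2 change of -2.03 (SE 0.27, adjusted p = 3.1e-06). *vit-3* changed by -0.96 (adjusted p = 0.0011) and *vit-4* by -0.67 (adjusted p = 0.0070). The *vit-3* call was lost without the 72h replicate 3, and that of *vit-4* with library totals and without any one library but the 24h replicate 3. *vit-2* (-0.65, adjusted p = 0.063), *vit-6* (-0.37, adjusted p = 0.28) and *vit-5* (0.08, adjusted p = 0.83) were not called. *vit-5* had 7863, 7868 and 6499 CPM at 24h and 8914, 7781 and 6839 CPM at 72h, and these ranges overlap. The summed level of the family was 39707 to 49928 CPM at 24h and 28153 to 37080 CPM at 72h. The genes *vit-3*, *vit-4* and *vit-5* are near-identical copies. Reads without a unique alignment, 10.4 to 11.9% of unexposed reads, were counted for no gene, so that the levels of these copies may be too low.

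Muscle genes were lower in part. *pat-10* (WBGene00003934, chromosome I, 5018783 to 5020358), the troponin C of body wall muscle, was at 1234, 1622 and 1206 CPM at 24h and at 366, 312 and 345 CPM at 72h. The 24h replicate 2 was the highest, and all 72h libraries lay far below the 24h libraries. The log2 change was -1.99 (SE 0.14, adjusted p = 7.5e-11). Of 24 muscle genes 11 fell (45.8%, beside 8.94% of all genes) and 0 rose, with a median of -0.54. They included thin and thick filament proteins, such as the myosin light chain *mlc-2* (243 ± 57.9 and 67.4 ± 4.11 CPM, SD, n = 3) and paramyosin *unc-15* (157 ± 31.9 and 87.7 ± 13.3 CPM, SD, n = 3). The main myosin heavy chain of body wall muscle, *unc-54*, was at 181, 247 and 174 CPM at 24h and at 149, 130 and 125 CPM at 72h, apart but not called (-0.57, adjusted p = 0.025).

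Cuticle collagen genes of the *col* series code for small collagens of the successive cuticles. Of 109 tested genes 20 fell (18.3%) and 2 rose (1.83%), beside 8.94% and 8.75% of all genes, with a median of -0.38. Their summed level was 14949 to 17204 CPM at 24h and 4599 to 5374 CPM at 72h. *col-93* (WBGene00000668, chromosome III, 10984552 to 10985609) was at 276, 365 and 335 CPM at 24h and at 5.14, 3.63 and 3.98 CPM at 72h. The groups were far apart, and the log2 change was -6.26 (SE 1.303, adjusted p = 6.7e-04). *col-20* went from 1445 ± 97.2 to 101 ± 18.9 CPM (SD, n = 3), *col-155* from 20.1 ± 1.63 to 2.54 ± 0.494 CPM (SD, n = 3) and *col-118* from 26.2 ± 2.81 to 8.204 ± 0.594 CPM (SD, n = 3). Of the 2 that rose, *col-183* had 0 counts in each 24h library and 114, 146 and 101 counts at 72h, at least 102.8-fold higher per depth against a floor of 3 counts summed over the 24h group. The lower end of the 95% interval, for counting error only, was 83.2. *col-183* overlaps *F02D10.10* on the other strand. The other, *col-99*, changed by 1.78 (adjusted p = 0.0070), and its call was lost without the filter and without any one library but the 72h replicate 2. It overlaps *daf-1* on the other strand.

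Genes of the larval moult held 1 rise and 1 fall among 21 tested (4.76% each, beside 8.75% and 8.94% of all genes). Their median log2 fold change was 0.33, beside 0.042 over all genes tested, with 15 changes above 0 and 6 below. *nas-37*, a protease that opens the old cuticle at ecdysis, was at 55.9, 58.8 and 55.8 CPM at 24h and at 13.4, 11.6 and 13.3 CPM at 72h. The groups were far apart, with a log2 change of -2.16 (adjusted p = 2.6e-06). *mlt-10* changed by 0.88 (adjusted p = 0.0093), and this call was lost without the filter and without each of the 6 libraries in turn. Of 15 furrow, roller, squat and blister collagens 0 were called by edgeR's quasi-likelihood test or by DESeq2, and at an unadjusted p under 0.05 2 were higher and 1 lower. Of 72 genes related to Hedgehog and its receptor Patched, 4 rose (5.56%) and 3 fell (4.17%), below the shares of all genes. Library totals gave 5 rises and 2 falls. The rises numbered 1 without the 24h replicate 2 and 2 without the 24h replicate 3 or any one 72h library. Those that fell included *grd-3* (80.4 ± 6.77 and 13.8 ± 1.89 CPM, SD, n = 3) and *grd-5* (99.6 ± 5.02 and 26.3 ± 1.21 CPM, SD, n = 3).

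Enzymes that break down and build fatty acids changed in both directions. Of 20 genes of beta-oxidation and peroxisomes 8 fell (40%) and 6 rose (30%), with a median of -0.46. *acdh-2* (WBGene00015894, chromosome II, 5544778 to 5547492), an acyl-CoA dehydrogenase, was at 158, 146 and 149 CPM at 24h and at 10.4, 9.08 and 14.2 CPM at 72h. The 2 groups did not overlap, with a log2 change of -3.75 (SE 0.23, adjusted p = 1.5e-11). *acdh-1*, a dehydrogenase of short branched chains, fell from 2258 ± 125 to 887 ± 145 CPM (SD, n = 3) and the enoyl-CoA hydratase *ech-6* from 678 ± 36.8 to 258 ± 20.9 CPM (SD, n = 3). *acdh-7* rose from 47.3 ± 1.90 to 109 ± 8.125 CPM (SD, n = 3), and the peroxisomal acyl-CoA oxidase *acox-1.2* from 16.9 ± 1.75 to 43.96 ± 2.23 CPM (SD, n = 3).

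Of 16 fatty acid desaturases and elongases 4 fell (25%) and 0 rose, with 3 and 1 under library totals. The 4 were all elongases (*elo-2*, *elo-3*, *elo-5* and *elo-9*). *elo-2* was at 193, 236 and 217 CPM at 24h and at 47.5, 50.2 and 46.9 CPM at 72h, and *elo-5*, which is needed for branched-chain fatty acids, went from 465 ± 14.7 to 135 ± 6.61 CPM (SD, n = 3). The 12 desaturases and elongases that were not called included all 7 *fat* genes. Of 25 genes of fatty acid synthesis, binding and lipolysis 4 rose (16%) and 2 fell (8%). The 4 were *far-3*, which codes for a fatty acid and retinol binding protein, and the lysosomal lipases *lipl-1*, *lipl-2* and *lipl-5*. *far-3* was at 43.4, 45.5 and 51.5 CPM at 24h and at 348, 406 and 374 CPM at 72h, and *lipl-1* at 6.73, 6.88 and 5.10 CPM and at 61.5, 56.1 and 48.4 CPM. Neither gene had overlapping groups. The 2 that fell code for fatty acid binding proteins, *lbp-6* (439 ± 25.4 and 166 ± 8.198 CPM, SD, n = 3) and *lbp-3* (135 ± 4.84 and 61.1 ± 5.83 CPM, SD, n = 3).

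**Figure D3:**
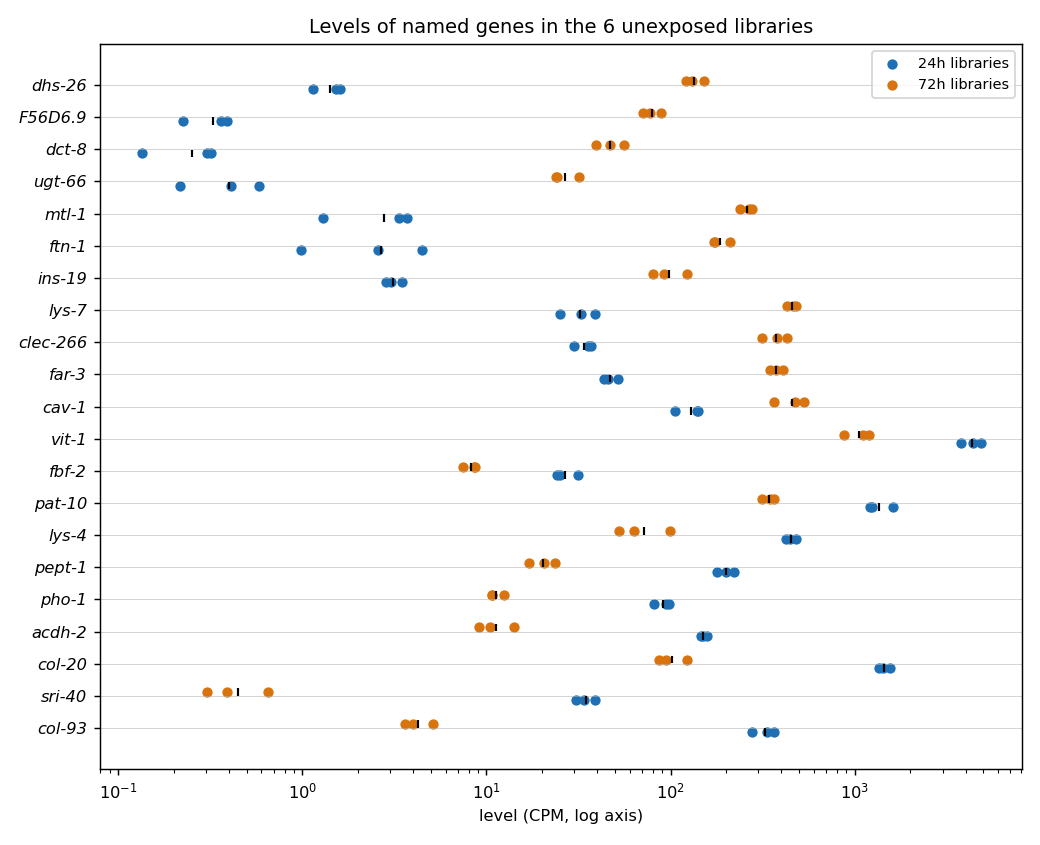
Levels of 21 named genes in each of the 6 unexposed libraries on a log axis, with the 24h libraries in blue, the 72h libraries in orange and black ticks at the group means. In all 21 genes the points of the times are separate, which the choice of called genes largely implies. *dhs-26*, at the top, moved from near 1 to above 100 CPM and *col-93*, at the bottom, from 276 or more to 5.14 or less CPM.

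The genes with the largest rises had low levels at 24h, which a choice by fold change favours. *dhs-26* (WBGene00000989, chromosome X, 3360722 to 3362493), of the short-chain dehydrogenase family, was at 1.14, 1.51 and 1.61 CPM at 24h and at 131, 152 and 121 CPM at 72h. Its log2 fold change was 6.56 (SE 0.31, adjusted p = 1.5e-13), and it overlaps *ZK816.1* on the other strand. *scl-20*, of a family of secreted proteins, had 0, 1 and 1 counts at 24h and 434, 452 and 461 counts at 72h. The ratio of summed counts per depth was 575, with a 95% interval of 159 to 4756 that covers counting error only. Of the other large rises 3 are neighbours on chromosome IV, within 3.18 kb (3892327 to 3895506). There *F56D6.9* was at 0.363, 0.389 and 0.224 CPM at 24h and at 77.7, 88.6 and 71.2 CPM at 72h. *F56D6.8* (0.279 ± 0.171 and 48.6 ± 4.53 CPM, SD, n = 3) and *dct-8* (0.252 ± 0.102 and 47.1 ± 8.196 CPM, SD, n = 3) rose with it. A further pair lies within 4.97 kb on chromosome I, *C54C8.12* with 0, 3 and 2 counts at 24h and 753, 333 and 507 at 72h, and *nlp-39*, of a neuropeptide-like family, with 3, 3 and 4 and with 1235, 593 and 808 counts. These neighbours were noticed after their values were seen.

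Among the largest falls were *sri-40*, a member of a chemoreceptor family, with 30.8, 33.99 and 38.9 CPM at 24h and 0.304, 0.654 and 0.391 CPM at 72h, and *F21C10.9*, with 27.6 ± 8.64 and 0.771 ± 0.280 CPM (SD, n = 3). *chca-1* went from 63.7 ± 10.7 to 5.66 ± 1.51 CPM (SD, n = 3) and *drd-10* from 25.2 ± 2.62 to 1.98 ± 0.602 CPM (SD, n = 3). In a few genes 1 library of 24h stood off from the other two. The glutathione S-transferase *gst-21* was at 6.77, 39.8 and 54.5 CPM at 24h and at 1.49, 2.65 and 1.46 CPM at 72h, and *F49E12.10* at 9.36, 60.2 and 37.7 CPM and at 2.28, 3.10 and 2.31 CPM. In both the 24h replicate 1 was nearest to the 72h level, and both lost their call when the 6 unexposed libraries were fitted alone.

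A pair of genes that bind metals, *mtl-1* and *ftn-1*, rose. *mtl-1* (WBGene00003473, chromosome V, 6691371 to 6691863), a metallothionein that binds heavy metals, was at 3.68, 3.33 and 1.296 CPM at 24h and at 237, 267 and 275 CPM at 72h. Its log2 fold change was 6.55 (SE 0.80, adjusted p = 9.4e-07). The ferritin gene *ftn-1*, which stores iron in the intestine, was at 2.59, 4.45 and 0.983 CPM at 24h and at 172, 174 and 210 CPM at 72h, and every 72h library lay far above every 24h library. Its log2 fold change was 6.11 (SE 0.82, adjusted p = 3.8e-06).

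Targets of DAF-16, the transcription factor held back by insulin signalling, were often higher. Of 19 tested 10 rose and 2 fell, with a median of 1.11, beside 8.75% of all genes higher. With DMSO 3 of the 19 rose and 6 fell, with a median of 0.11. The list mixes genes known to be raised by DAF-16 with genes known to be held down by it. Of the first kind *mtl-1*, the manganese superoxide dismutase *sod-3* (2.07 ± 0.315 and 6.82 ± 1.59 CPM, SD, n = 3) and *lea-1*, a gene of desiccation tolerance (143 ± 14.9 and 545 ± 49.8 CPM, SD, n = 3), rose, as did *icl-1*, of the glyoxylate cycle (1.11, adjusted p = 0.0024). The *icl-1* call was lost without the 24h replicate 2, the 24h replicate 3 or the 72h replicate 1. Of the second kind *dod-22*, *dod-24* and *ins-7* rose and *dod-17* fell (8.38 ± 2.05 and 2.54 ± 0.703 CPM, SD, n = 3). The other gene of the list that fell was *nlp-7*, which was not sorted by kind. Of 12 genes of the HIF-1 pathway, which answers to low oxygen, 3 rose (25%) and 0 fell. They were *egl-9*, the sulphide quinone oxidoreductase *sqrd-1* (4.90 ± 0.327 and 16.3 ± 1.36 CPM, SD, n = 3) and the flavin monooxygenase *fmo-2*, with 1, 6 and 0 counts at 24h and 332, 125 and 125 counts at 72h.

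Of 8 inducible cytosolic heat shock genes 0 were called by edgeR's quasi-likelihood test or by DESeq2, and 1 had an unadjusted p under 0.05. Of 33 proteasome subunits 0 were called by edgeR's test and 1 by DESeq2, which was lower, and at an unadjusted p under 0.05 1 was higher and 3 lower. Of 22 genes of autophagy and lysosomes 6 rose (27.3%) and 1 fell (4.55%), with 10 rises and 0 falls under library totals. The rises numbered 1 without the 24h replicate 2, 2 without the 72h replicate 1 and 3 without the 24h replicate 3. *epg-5* and *atg-2*, both needed for autophagosomes, changed by 0.64 and 0.87, the former lost without the filter or the 24h replicate 2.

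Genes of innate immunity rose in some families. The peptides of the *nlp* and *cnc* families are made by the epidermis against fungi and after wounding. Of 18 such genes 10 rose (55.6%, or 6 genes without the 24h replicate 1) and 0 fell, with a median of 1.44. *cnc-7* was at 5.36, 4.71 and 4.20 CPM at 24h and at 21.3, 24.0 and 28.1 CPM at 72h, and *nlp-31* at 17.04, 14.9 and 15.4 CPM and at 48.6, 41.3 and 45.8 CPM. The groups stood apart for both genes. The lysozyme gene *lys-7* (WBGene00003096, chromosome V, 3481432 to 3482600) was at 25.13, 32.7 and 39.02 CPM at 24h and at 429, 462 and 478 CPM at 72h. Its log2 fold change was 3.82 (SE 0.47, adjusted p = 1.0e-06). Of 12 lysozymes 3 rose (25%) and 1 fell (8.33%). With *lys-7* the rises were *lys-1* and *lys-2* (159 ± 16.46 and 431 ± 11.4 CPM, SD, n = 3). The fall was *lys-4*, from 450 ± 28.3 to 71.6 ± 24.5 CPM (SD, n = 3).

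C-type lectins, many of which are secreted by the intestine, held 20 rises (13.9%) and 11 falls (7.64%) among 144 tested, beside 8.75% and 8.94% of all genes. The rises numbered 12 without the 24h replicate 2. *clec-266* was at 36.8, 29.9 and 35.5 CPM at 24h and at 430, 315 and 377 CPM at 72h, while *clec-97* fell from 109 ± 1.95 to 23.2 ± 1.45 CPM (SD, n = 3). Of 22 saposin-like and antibacterial factors 4 fell (18.2%, or 2 genes with library totals) and 1 rose (4.55%). *spp-17* was at 343 ± 39.2 and 80.4 ± 5.65 CPM (SD, n = 3), and *spp-12*, with 2, 3 and 2 counts at 24h, had 76, 102 and 150 counts at 72h.

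Enzymes that modify foreign compounds were counted by class, and no difference between classes was tested. Of 66 cytochromes P450, which oxidise such compounds, 16 rose (24.2%) and 3 fell, with a median of 0.51. *cyp-35A2* was at 73.2, 59.1 and 61.1 CPM at 24h and at 175, 200 and 166 CPM at 72h, and *cyp-34A2* at 1.27, 2.08 and 1.43 CPM and at 21.4, 19.2 and 21.1 CPM. The groups did not overlap. Of 63 UDP-glucuronosyltransferases, which add a sugar, 16 fell (25.4%) and 8 rose (12.7%), with a median of -0.11, and with library totals 13 fell and 11 rose. *ugt-47* fell from 68.4 ± 5.80 to 14.2 ± 0.909 CPM (SD, n = 3), while *ugt-41* rose from 21.9 ± 3.04 to 90.8 ± 4.36 CPM (SD, n = 3) and *ugt-66* from 0.402 ± 0.182 to 26.7 ± 4.52 CPM (SD, n = 3). Of 44 glutathione S-transferases 7 rose and 7 fell (15.9% each). The SKN-1 target *gst-4* rose from 29.8 ± 2.97 to 60.9 ± 7.38 CPM (SD, n = 3), and *gst-26* fell from 40.3 ± 6.18 to 11.996 ± 0.932 CPM (SD, n = 3).

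Signalling genes held a few large changes. Of 26 insulin-like peptides 3 rose (11.5%) and 1 fell (3.85%), beside 8.75% and 8.94% of all genes. *ins-19* was at 3.04, 3.46 and 2.86 CPM at 24h and at 123, 79.9 and 91.6 CPM at 72h, a log2 change of 4.97 (SE 0.68, adjusted p = 4.6e-06). *ins-2* went from 0.430 ± 0.0262 to 7.35 ± 4.27 CPM (SD, n = 3), and its 72h libraries ranged from 3.14 to 11.7 CPM. *ins-12* fell (-1.55, adjusted p = 0.0025), a call lost without the 24h replicate 3, the 72h replicate 2 or the 72h replicate 3. Of 194 nuclear hormone receptors, ligand-dependent transcription factors of which nematodes have many, 11 rose (5.67%) and 7 fell (3.61%). Both shares were below those of all genes, 8.75% and 8.94%. The rises numbered 7 without the 24h replicate 1, and library totals gave 16 rises and 6 falls. *nhr-71* was at 20.1 ± 4.52 and 53.5 ± 2.93 CPM (SD, n = 3). Of 23 neuronal markers 1 rose (4.35%) and 0 fell. The rise was *unc-119*, with a change of 0.60. Its call was lost without the filter or without the 24h replicates 1 and 2 and the 72h replicates 1 and 3, each in turn.

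F-box and MATH domain proteins, many of which select proteins for degradation, were higher in 56 of 320 cases (17.5%) and lower in 12 (3.75%), with 66 and 3 under library totals. Without single libraries the rises numbered 30 to 37 for the 24h replicates 1 (37) and 2 (30) and the 72h replicates 1 (35) and 3 (34), and the falls 4 to 7. *fbxb-66* rose from 4.49 ± 1.46 to 23.5 ± 4.83 CPM (SD, n = 3). By chromosome, 342 of 2303 tested genes on X rose (14.9%) and 206 fell (8.94%), beside 1056 (7.78%) and 1214 (8.95%) of 13571 on chromosomes I to V. With DMSO 9.08% of the tested genes on X rose and 30.3% fell, beside 13.9% and 19.2% of all genes. Of the 320 F-box and MATH genes 24 rose and 59 fell with DMSO. By the test of the difference 66 had the higher change without DMSO and 4 the lower, beside 11.8% and 7.53% of all genes.

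Calls in the germline lists other than eggshell genes were near or below the shares of all genes, 8.75% higher and 8.94% lower. In some of these lists most members nevertheless moved in 1 direction, as given below. Among 17 eggshell genes 4 rose (23.5%) and 0 fell, with a median of 0.59. Leaving out any one library gave 1 or 2 rises among these genes. Their summed level was 5708 to 6859 CPM at 24h and 9982 to 11728 CPM at 72h. *cav-1* (WBGene00000301, chromosome IV, 9772510 to 9773559), the caveolin carried on granules of the oocyte, was at 141, 105 and 139 CPM at 24h and at 527, 366 and 474 CPM at 72h. The groups were apart and the log2 change was 1.83 (SE 0.30, adjusted p = 4.4e-05). *mbk-2*, the kinase of egg activation, was at 282 ± 12.03 and 450 ± 24.3 CPM (SD, n = 3), a call lost without the 24h replicate 2, and *cpg-1* and *perm-4* were the others. The oocyte genes *oma-2* and *rme-2* were not called. *oma-2* was at 248, 288 and 341 CPM at 24h and at 585, 685 and 581 CPM at 72h (1.08, adjusted p = 0.049), and the yolk receptor gene *rme-2* at 369 ± 37.3 and 558 ± 95.6 CPM (SD, n = 3, adjusted p = 0.35).

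Of 24 maternal regulators and oocyte genes 2 fell (8.33%, beside 8.94% of all genes) and 0 rose. Library totals gave 2 rises and 2 falls. The libraries of 13 were apart upwards, beside 27.4% of all genes. The 2 were *fbf-1* and *fbf-2*, which code for RNA-binding proteins that keep germline stem cells dividing. *fbf-2* was at 25.13, 31.3 and 24.1 CPM at 24h and at 8.57, 8.66 and 7.47 CPM at 72h (-1.70, adjusted p = 4.7e-07), and *fbf-1* at 21.5 ± 1.55 and 9.83 ± 1.52 CPM (SD, n = 3). Of 19 P granule components 0 rose and 2 fell (10.5%), the helicase *glh-1* (-0.85) and the Argonaute *csr-1* (-1.09). Library totals gave 3 rises and 2 falls in this list. Of 27 genes of the synaptonemal complex and pairing 2 fell (7.41%), *zim-3* (-0.90) and *chk-2* (-1.01). Changes were below 0 for 22 of the 27 and above 0 for 5. The libraries of 14 were apart downwards and of 1 upwards, beside 27.1% and 27.4% of all genes. The call of *zim-3* was lost with library totals and without any one library, that of *chk-2* without the 24h replicate 3 and the 72h replicates 1 and 3, and that of *glh-1* without the 72h replicate 1. Of 32 genes of cell division 1 rose and 0 fell. The 1 was the replication licensing factor *cdt-1* (0.62, adjusted p = 0.0073), a call lost without any one library. Changes were above 0 for 27 of the 32 and below 0 for 5. The libraries of 19 were apart upwards and of 1 downwards. Their summed level was 7240 to 8070 CPM at 24h and 9745 to 10021 CPM at 72h. The histone H3.3 gene *his-72* rose from 158 ± 7.58 to 294 ± 31.0 CPM (SD, n = 3).

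Transcripts of the major sperm proteins were rare at both times. The 23 tested major sperm protein genes, the main proteins of nematode sperm, summed to 2.68, 2.03 and 6.57 CPM at 24h and to 2.92, 0.621 and 3.80 CPM at 72h. None was called by edgeR's quasi-likelihood test and 1 was lower by DESeq2, with 2 at an unadjusted p under 0.05. The 19 genes of sperm function summed to 182 to 209 CPM at 24h and to 165 to 186 CPM at 72h. Of these *spe-15*, a myosin, rose from 3.87 ± 0.682 to 6.896 ± 0.822 CPM (SD, n = 3), a call lost without the filter, the 24h replicates 1 or 2 or the 72h replicate 1, and 0 fell. The sperm gene *fer-1* had 5, 3 and 20 counts at 24h and 53, 40 and 35 at 72h, apart upwards but not called (1.73, adjusted p = 0.017). It was called without the 24h replicate 3 (2.95), and was described after its values were seen. Of 23 genes first transcribed in embryos 4 rose and 4 fell (17.4% each). *tbx-37*, a T-box gene of the anterior lineage, was at 1.82, 0.908 and 0.715 CPM at 24h and at 9.63, 6.60 and 9.71 CPM at 72h, and *die-1* at 55.7 ± 5.71 and 103 ± 8.17 CPM (SD, n = 3), with *tbx-38* and *sdz-28*. *end-1*, a gene of the endoderm, had 36, 38 and 42 counts at 24h and 8, 12 and 2 counts at 72h. *hlh-27* had 12, 24 and 13 counts and then 1, 0 and 2, a ratio per depth of 0.0523 with a 95% interval of 0.0104 to 0.162, and *sdz-1* and *ceh-36* were the other 2 that fell. Of 17 genes of the somatic gonad 2 rose (11.8%) and 0 fell. *sem-2* rose from 13.996 ± 1.18 to 35.03 ± 5.25 CPM (SD, n = 3). *lim-7*, of the gonadal sheath, rose from 4.38 ± 0.401 to 9.04 ± 1.72 CPM (SD, n = 3). The *lim-7* call was lost without the 24h replicates 1 and 2 and the 72h replicates 1 and 3, each in turn.

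**Figure D4:**
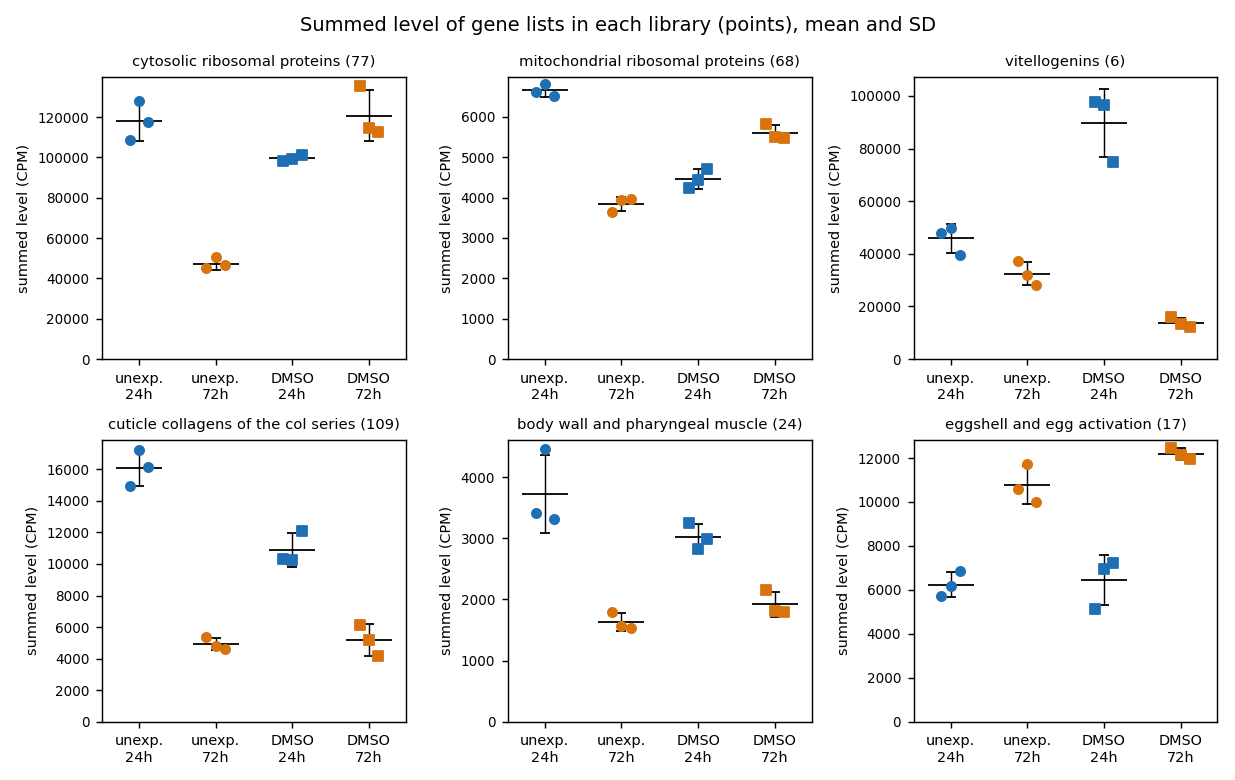
Summed level of 6 gene lists in CPM for each library (points), with the mean as a line and the SD as a bar, for unexposed nematodes (circles) and the DMSO controls (squares) at 24h (blue) and 72h (orange). For the cytosolic ribosomal proteins the unexposed libraries of 72h, at 44918 to 50789 CPM, lie below all other libraries, while for the vitellogenins the DMSO libraries of 72h are the lowest.

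The same interval was sampled in the DMSO controls, which share no library with the unexposed nematodes and were sequenced in another lane. With DMSO 2231 genes were higher and 3076 lower at 72h. The DMSO libraries also differed between times in reads assigned to no gene (17.7 to 18.99% at 24h and 10.5 to 10.88% at 72h) and in the share of rRNA genes (1.04 to 2.37% and 0.454 to 0.584%), and the part of these in the result was not tested. The change itself was tested for a difference between the 2 controls, and 3109 genes (19.4%) passed, of which 1900 had the larger value in unexposed nematodes and 1209 the smaller. Of the unexposed rises 348 were also rises with DMSO (24.8% of the unexposed and 15.6% of the DMSO rises) and 186 were falls. Of the unexposed falls 676 were also falls with DMSO (47.1% and 21.98%) and 88 were rises. Across genes the log2 fold changes correlated with a Pearson r of 0.300, over genes that are not independent replicates.

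Ribosomal proteins differed between the controls. For 67 of 77 cytosolic and 42 of 68 mitochondrial ribosomal protein genes the change was lower in unexposed nematodes than with DMSO, and for 0 of them higher, beside 7.53% of all genes lower. With DMSO 18 of the 77 rose and 5 fell, with a median of 0.33, and these genes took 9.01 to 9.72% of the gene counts at 24h and 10.7 to 12.27% at 72h. Over the 10 groups of the series the lowest shares were those of the unexposed nematodes at 72h and of d4T at 72h (5.95 to 6.15%). *rps-19* was at 919 ± 52.8 and 1167 ± 174 CPM (SD, n = 3) with DMSO, and the unexposed minus the DMSO change was -1.77 (SE 0.19, adjusted p = 6.0e-07).

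Genes of the intestine fell with DMSO as well, as 10 of the 11 identity genes were lower, with a median of -1.61. All 6 vitellogenins fell with DMSO, with a median of -2.51, and for 4 of them the difference passed the test. *vit-2* was at 14894 ± 1760 and 9486 ± 1470 CPM (SD, n = 3) without DMSO, and the unexposed minus the DMSO change was 2.29 (adjusted p = 5.8e-05). *pept-1*, *acdh-2* and *col-93* changed by -2.47, -4.11 and -3.82 with DMSO, and no difference was called for them. *dhs-26* rose with DMSO by 7.82 and *lys-7* by 3.44. The 3 neighbours on chromosome IV rose by 5.21, 5.01 and 1.88 with DMSO, in the order *F56D6.9*, *F56D6.8* and *dct-8*, and the difference was called for the first and the last.

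**Figure D5:**
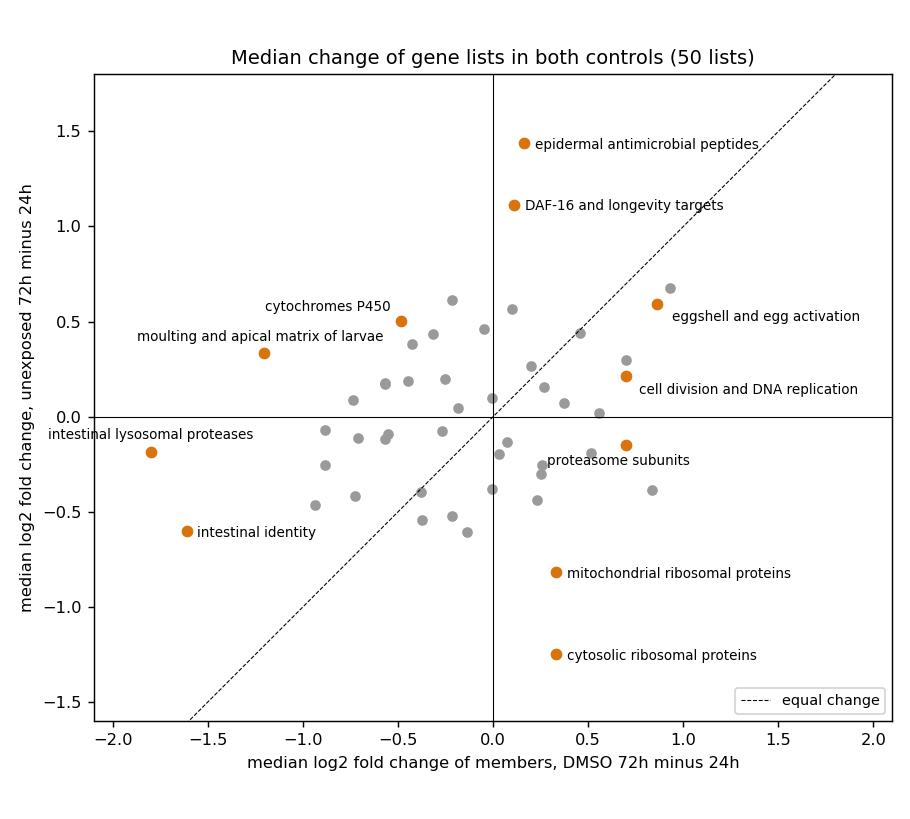
Each point is 1 of 50 gene lists, with the median log2 fold change of its members from 24h to 72h in the DMSO controls (horizontal axis) and in unexposed nematodes (vertical axis). Ribosomal protein lists lie below the dashed line of equal change, at -1.25 and -0.82 against 0.33 and 0.33, and the lists of moulting and of lysosomal proteases lie above it.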

How the data were processed

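Transcript counts of 6 unexposed libraries, 3 at 24h and 3 at 72h, were analysed within a series of 30. The authors trimmed reads with Trimmomatic 0.32 after CASAVA 1.8.2, aligned them to WBcel235 with TopHat 2.0.8 and Bowtie 2.1.0 and obtained a read count for every gene from HTSeq. These counts were deposited without normalization. 5 entries per library that name no gene (13.3 to 15.0% of unexposed reads) were left out. Whether strand was used in counting is not given in the sources used here, and without it reads of overlapping genes on opposite strands cannot be separated. Genes named here with such an overlap include *col-183*, *far-3*, *elo-5*, *lbp-6*, *lea-1*, *mlc-2*, *sod-3*, *hlh-27*, *mbk-2*, *fbf-1* and *pho-1*. *gst-4* overlaps *dhs-12* on the same strand. No 2 libraries held the same values.

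Genes had to pass filterByExpr (at least 10 counts, 15 in total). After TMM scaling they were fitted for all 10 groups with edgeR 4.0.16 in R 4.3.3 (glmQLFit, robust, 20 residual degrees of freedom, common biological coefficient of variation 0.240), without a replicate block. P-values of glmQLFTest were adjusted over all genes. The contrasts were unexposed 72h minus 24h, and this change minus that with DMSO. The 55 gene lists, the members and the naming rule were chosen with earlier results of these data known. The rule takes the 10 largest rises and falls with at least 10 CPM and libraries apart, up to 2 called members per list and direction with the smallest adjusted p, the first member of each list, and all vitellogenin and mtDNA respiratory genes, of which some were left out. One pattern for chemoreceptors was corrected after it was seen to catch other genes. Gene names and coordinates came from Ensembl release 115, with mtDNA names from RefSeq by overlap. No sequence was read.

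The fit was also tested on simulated data. The alternatives tried were DESeq2 1.42.0, scaling by relative log expression or by library totals, no filter, the compared groups alone, the replicate number as block, and the omission of the d4T 24h replicate 2 or of each compared library.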

Additional observations from a re-analysis of the deposited data

Results flagged for a closer look

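The change from 24h to 72h differed between unexposed and DMSO nematodes in 3109 genes by the test of the difference itself (edgeR's quasi-likelihood test, adjusted p under 0.01), among them 57 of the 125 genes described with a value. The values below are the unexposed minus the DMSO change on the log2 scale, and no cause was tested. For the machinery of protein synthesis they were -1.77 (*rps-19*), -0.69 (*rps-6*), -1.41 (*mrpl-41*), -1.28 (*mrpl-30*), -0.81 (*nol-56*) and -0.72 (*rpoa-2*). For respiratory genes they were -1.11 (*nuo-2*), -1.01 (*ucr-11*), 1.27 (*sdha-1*), -1.65 (*ND6*), -0.72 (*CYTB*) and -1.21 (*ND5*).

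For cuticle and muscle genes they were 5.06 (*col-99*), 2.07 (*mlt-10*), 1.54 (*nas-37*), -1.51 (*pat-10*), -1.79 (*mlc-2*) and 1.84 (*unc-54*). The yolk genes were at 2.29 (*vit-2*), 1.42 (*vit-4*), 2.27 (*vit-5*) and 2.53 (*vit-6*). Fatty acid and glyoxylate genes were at 1.46 (*acdh-7*), 1.32 (*far-3*), 2.49 (*lipl-1*) and 3.01 (*icl-1*). Immune genes were at 1.27 (*lys-2*), 1.49 (*nlp-31*), 2.99 (*clec-266*) and 5.03 (*spp-12*). Stress and autophagy genes were at 4.77 (*mtl-1*), 1.62 (*lea-1*), -1.62 (*dod-17*), 1.21 (*sqrd-1*), 2.13 (*atg-2*) and 2.37 (*epg-5*).

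Enzymes of detoxification were at 1.32 (*cyp-35A2*), 2.81 (*cyp-34A2*), -0.92 (*ugt-47*) and -5.25 (*gst-21*). Signalling and F-box genes were at 3.33 (*ins-19*), 4.49 (*ins-2*) and 2.99 (*fbxb-66*). Of the largest changes, *F56D6.9* was at 2.69, *dct-8* at 5.64, *sri-40* at -2.75, *chca-1* at -1.605 and *F49E12.10* at -3.25. Germline, embryo and gonad genes were at 2.0997 (*cav-1*), -0.90 (*fbf-1*), -0.998 (*fbf-2*), -1.33 (*zim-3*), 1.77 (*die-1*), 1.496 (*lim-7*) and 1.43 (*sem-2*), and the sperm gene *fer-1* and the gut gene *ges-1* were at 2.998 and 1.89. In 8 genes both changes were called in opposite directions (*nuo-2*, *sdha-1*, *col-99*, *mlt-10*, *icl-1*, *atg-2*, *epg-5* and *die-1*), of which *nuo-2* fell without DMSO and the others rose.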

How the results depend on the processing

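The 1405 rises and 1435 falls were recomputed under 13 alternatives and the 3109 differences from DMSO under 19, and the counts stayed within 1.5 times their number except where given here. Library totals gave 2186 rises and 894 falls. The compared groups alone gave 2958 and 2986, and 6367 genes with a difference from DMSO in place of 3109. Without the d4T 24h replicate 2 there were 2248 rises, 1981 falls and 5535 differences. Without single compared libraries the rises numbered 940 to 1147, the falls 908 (without the 72h replicate 1) to 1123, with 934 without the 24h replicate 2, and the differences 1931 (without the DMSO 24h replicate 1) to 3022, with 2070 without the unexposed 72h replicate 1. DESeq2 gave 1822 rises and 1688 falls, of which 2833 in all were among the 2840. The cause of these shifts was not tested. Of the 113 called genes among those named with a value, 90 kept their call in every alternative and none changed sign. Of 110 counts of rises or falls over the gene lists 72 moved by over 1.5 times in 1 or more alternatives.

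Replicate numbers are not stated to pair the libraries. Between the unexposed times the correlations of residuals were 0.105, 0.0871 and 0.024 for equal numbers and -0.0897 to 0.0097 for unequal numbers. Such values cannot decide whether the libraries were paired. With the replicate number as a block 943 genes rose, 1003 fell and 1816 differed from DMSO. Calls lost with the block included those of *fib-1*, *chk-2* and *vit-4*. The F-box and MATH rises then numbered 37 in place of 56, and the vacuolar ATPase falls 8 in place of 14. The p-values rest on the spread between cultures within all 10 groups of the series, with 3 libraries a group, and not on the 6 unexposed libraries alone. A gene that was not called is not shown to be unchanged.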

Other observations

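Transthyretin-like proteins, a large secreted family of nematodes, held 8 rises and 8 falls (16.3% each) among 49 tested genes, with a median log2 fold change of 0.04. Their summed level was 4396 to 4790 CPM at 24h and 4922 to 5576 CPM at 72h. Of 38 genes of glycolysis, gluconeogenesis and the TCA cycle 2 rose (5.26%) and 3 fell (7.89%), below the shares of all genes (8.75% and 8.94%). Library totals gave 4 rises and 2 falls, and the median was -0.08 in the main fit. Of 17 chaperones and sensors of the endoplasmic reticulum 3 rose (17.6%) and 0 fell, with 7 rises under library totals. Of 148 tested chemoreceptor genes 23 rose (15.5%) and 7 fell (4.73%), of which only 10 and 5 reached 1 CPM in the higher group. Library totals gave 25 rises and 3 falls. The rises numbered 11 to 15 without any one of the 24h libraries and 12 without the 72h replicate 3. The falls numbered 2 to 4 without the 24h replicates 2 and 3 or any one 72h library.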
